A study of Drosophila melanogaster with 2 samples.

Results

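Abd-B, the most posterior Hox protein of the fly, left 926 of its 5033 reproducible ChIP-seq peaks at promoters that neighbouring protein-coding genes share (18.4%, 95% Wilson interval 17.4 to 19.5%). A peak belonged here when its summit lay within 500 bp of annotated transcription start sites (TSSs) of 2 or more different protein-coding genes. At 866 of the 926 peaks (93.5%, 91.7 to 94.9%) the genes included a divergent pair, in which 2 genes on opposite strands start back to back and are transcribed away from each other. The other 60 peaks lay at genes that start on the same base of the same strand (33 peaks), at opposite-strand genes whose closest starts overlap (24 peaks) or at same-strand genes with different starts (3 peaks). By annotation, 2616 of all 3520 pairs of protein-coding genes with closest TSSs at most 1000 bp apart are divergent. Of all summits within 500 bp of a protein-coding TSS, 926 of 2316 (40.0%, 38.0 to 42.0%) had a second gene in reach, and 1390 had 1 gene only. The remaining 2717 peaks had no protein-coding TSS within that distance.

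There was 1 group, of 2 biological replicates: whole Drosophila melanogaster embryos aged 4 to 20 h from a line with an insertion that makes Abd-B with GFP at its C-terminus. Chromatin sheared by sonication to between 200 and 800 bp was precipitated with an antibody against GFP, although 1 label field names Abd-B as the antibody. The labels do not say whether the embryos also made untagged Abd-B, and a whole embryo mixes cells that make Abd-B with the many that do not. The data were the authors' peak lists on build dm6, namely 30000 peaks for each replicate and a joint list kept by the irreproducible discovery rate (IDR), a measure of how well peaks hold their rank across replicates. Peaks were ranked within a list by the authors' signal value, a score on a scale that neither labels nor files state, so that rank 1 is the strongest. The lists give no read counts and the depth is unknown. Intervals cover only the counting of peaks, pairs or genes. P-values describe this peak list, since peaks, pairs and genes are not independent replicates.

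Divergent promoters are common in compact genomes such as that of the fly. The pair of genes shares one stretch of open chromatin, with a core promoter at each end and regulatory sequence between them, and many such genes have housekeeping roles. Sequence elements typical of fly housekeeping promoters are the site of DREF, a factor of proliferation genes, Motif 1, which is bound by M1BP, and the site of the boundary protein BEAF-32. Hox proteins bind short AT-rich sites, and sites of Abd-B and its relatives often contain TTTATGG or TTTATTG.

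The stretches between the starts of 6 of the strongest divergent pairs are shown here because the summit lies near the middle of most of them and because 3 of them hold none of the motifs marked. They come from the RefSeq sequence of Release 6 (dm6), are written on the plus strand, and hold only bases outside annotated exons. Capitals mark TATCGATA (DREF), GGTCACAC (Motif 1), TTTATGG or TTTATTG (Abd-B) and TAATTA (Hox core), on either strand. Tcs5 and CHMP2B flank chr3L:5139396-5139618, where the summit of the peak of rank 8 was base 105 of 223. Art3 and mRpS10 flank chr3R:15229409-15229664, with the summit of rank 13 at base 110 of 256. Atat and Shc flank chr3L:9426759-9427009, with the summit of rank 19 near the middle of its 251 bases. CG7601 and CIA30 flank chr3R:29736746-29736964, with the summit of rank 25 at base 108 of 219. CG13390 and CG17294 flank chr2L:8376798-8377034, with the summit of rank 27 at base 83 of 237. Lon and PIG-F flank chr3L:19612200-19612454, with the summit of rank 38 at base 125 of 255. The last 2 sequences are divergent pairs of like spacing with no shared summit in any of the deposited lists, Dic61B and p130CAS at chr3L:152590-152883 and kra and SecS at chr3R:5601137-5601432.
Tcs5 and CHMP2B: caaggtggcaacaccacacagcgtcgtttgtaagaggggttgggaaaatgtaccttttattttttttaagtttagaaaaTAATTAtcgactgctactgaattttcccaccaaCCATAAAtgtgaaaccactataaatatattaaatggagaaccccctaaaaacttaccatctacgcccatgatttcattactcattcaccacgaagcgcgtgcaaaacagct
Art3 and mRpS10: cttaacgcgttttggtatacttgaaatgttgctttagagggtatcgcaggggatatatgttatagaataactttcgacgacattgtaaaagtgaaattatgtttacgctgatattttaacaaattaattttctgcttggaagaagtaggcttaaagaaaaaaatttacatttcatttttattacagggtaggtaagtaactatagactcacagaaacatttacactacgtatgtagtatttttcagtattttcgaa
Atat and Shc: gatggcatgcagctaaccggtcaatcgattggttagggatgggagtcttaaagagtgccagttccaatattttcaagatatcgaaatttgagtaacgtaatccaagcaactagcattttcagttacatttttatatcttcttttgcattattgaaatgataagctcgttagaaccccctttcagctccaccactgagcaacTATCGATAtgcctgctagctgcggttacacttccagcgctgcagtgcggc
CG7601 and CIA30: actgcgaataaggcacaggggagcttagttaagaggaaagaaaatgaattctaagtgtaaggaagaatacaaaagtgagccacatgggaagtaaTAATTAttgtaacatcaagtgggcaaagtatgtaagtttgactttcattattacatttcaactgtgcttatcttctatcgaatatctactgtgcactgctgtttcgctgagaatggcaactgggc
CG13390 and CG17294: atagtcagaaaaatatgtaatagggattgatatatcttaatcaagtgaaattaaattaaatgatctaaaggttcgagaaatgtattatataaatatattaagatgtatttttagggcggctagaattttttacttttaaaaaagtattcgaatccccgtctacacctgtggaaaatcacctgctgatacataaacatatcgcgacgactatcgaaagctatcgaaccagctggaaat
Lon and PIG-F: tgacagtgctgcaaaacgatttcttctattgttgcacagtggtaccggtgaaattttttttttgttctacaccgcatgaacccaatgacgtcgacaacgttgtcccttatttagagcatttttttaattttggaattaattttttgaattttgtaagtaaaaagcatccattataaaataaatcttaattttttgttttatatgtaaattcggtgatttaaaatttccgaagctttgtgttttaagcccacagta
Dic61B and p130CAS: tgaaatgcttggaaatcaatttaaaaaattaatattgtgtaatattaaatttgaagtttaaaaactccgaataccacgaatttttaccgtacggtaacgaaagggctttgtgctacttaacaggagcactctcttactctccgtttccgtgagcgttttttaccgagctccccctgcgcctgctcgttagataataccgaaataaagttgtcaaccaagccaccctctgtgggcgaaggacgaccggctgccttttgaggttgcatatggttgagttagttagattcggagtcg
kra and SecS: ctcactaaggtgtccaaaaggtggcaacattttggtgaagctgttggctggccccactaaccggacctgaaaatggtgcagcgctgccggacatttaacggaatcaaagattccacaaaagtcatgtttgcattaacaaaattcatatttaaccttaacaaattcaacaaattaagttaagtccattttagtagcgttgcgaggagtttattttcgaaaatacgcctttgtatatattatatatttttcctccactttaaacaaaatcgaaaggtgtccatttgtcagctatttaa

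GC content was 38.1% between Tcs5 and CHMP2B, 43.0% between Atat and Shc, and 30.1% between Art3 and mRpS10. It was 37.9% between CG7601 and CIA30, 30.8% between CG13390 and CG17294, and 30.6% between Lon and PIG-F. It was 42.2% between Dic61B and p130CAS and 36.8% between kra and SecS, neither of which held a match to the 4 motifs marked. Of the 6 stretches with a summit, that of Tcs5 and CHMP2B held a Hox core and an Abd-B match, that of CG7601 and CIA30 a Hox core, and that of Atat and Shc a DREF match. The other 3 held none of the 4 motifs marked, which says only that those letters are not in these windows. CGATA, the core of BEAF-32 sites, was not marked. It had 3 matches each at Atat and Shc and at CG13390 and CG17294. There was 1 each at Tcs5 and CHMP2B, Art3 and mRpS10, and CG7601 and CIA30, and 0 elsewhere. TATAAA, also not marked, had 2 matches at Lon and PIG-F. It had 1 each at Tcs5 and CHMP2B, Atat and Shc, and CG13390 and CG17294, and 0 elsewhere. These counts were not tested.

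The strongest peak at a shared promoter, of rank 5 on 3L (22878713 to 22879097), lay at Ssl1, a subunit of the transcription and repair factor TFIIH, and Chro, which encodes a chromodomain protein of the interbands. Its signal value was 995 in replicate 1 (rank 11) and 2166 in replicate 2 (rank 4). The summit lay 206 bp upstream of Ssl1 but inside Chro, whose start is 105 bp from that of Ssl1. The peak between CHMP2B, a subunit of the membrane-remodelling complex ESCRT-III, and Tcs5, of the threonylcarbamoyl modification of tRNA, had a signal value of 1102 in replicate 1 (rank 5) and 1911 in replicate 2 (rank 9). Its summit was 119 bp upstream of CHMP2B and 105 bp upstream of Tcs5, so that it was almost equally far from both. Between CG5611 and Mtl, a GTPase of the Rac family, the peak of rank 12 stood at rank 6 in replicate 1 and rank 14 in replicate 2. Between Art3, an arginine methyltransferase, and mRpS10, of the small subunit of the mitochondrial ribosome, the values were 930 in replicate 1 (rank 14) and 1778 in replicate 2 (rank 12). All 4 peaks were thus among the strongest in each replicate taken alone.

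The rest of the 20 strongest divergent peaks were spread over further genes. Atat, a tubulin acetyltransferase, and Shc, an adaptor of receptor tyrosine kinases, shared the peak of rank 19. Pex11ab, of peroxisomes, and CG8320 shared rank 24, and CIA30, an assembly factor of respiratory complex I, shared rank 25 with CG7601. The cap-binding repressor of translation eIF4EHP was paired with CG18428 (rank 28). The mitochondrial ribosomal genes mRpS23, paired with CenG1A (rank 29), and mRpL23, paired with CG9004 (rank 31), followed. Lon, a mitochondrial protease, and PIG-F, of GPI anchor synthesis, shared rank 38, and the kinase of the JNK pathway Mkk4 shared rank 44 with SLIRP2. The ATPase of the Brahma chromatin remodeller, brm, shared rank 47 with the Golgi GTPase Arl1, 134 bp upstream of brm and 132 bp upstream of Arl1. Bdp1, of the RNA polymerase III factor TFIIIB, and CG6565 shared rank 51. Hrd3, of the degradation of endoplasmic reticulum proteins, and the mitochondrial phosphatase PTPMT1 shared rank 54. The other named pairs were CG13390 with CG17294, CG5757 with CG5098, Fbw5 with CG9147, CG13016 with CG13018, and CG10467 with loj. Among these 20 peaks the lowest standing was rank 70 in replicate 1 and rank 56 in replicate 2. The summit was upstream of both genes at 16 of the 20, and at 10 of the 20 the starts were 200 to 300 bp apart.

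Of the peaks at other pairs, the strongest was that of Pdrg1 and Pal1, an enzyme of peptide amidation, at rank 18 (signal value 956 and rank 12 in replicate 1, 1353 and rank 28 in replicate 2). The closest starts of these 2 genes overlap by annotation, which sets the class. The summit was 166 bp upstream of the nearest start of Pdrg1 and 180 bp upstream of that of Pal1. Those nearest starts thus stand back to back on either side of the summit, as in a divergent pair. CG7988 and CG7183, whose starts also overlap, followed at rank 70. The 2 genes of secreted ferritin, Fer2LCH and Fer1HCH, shared rank 235, with the summit 133 bp inside Fer2LCH and 231 bp upstream of Fer1HCH. Genes that start on the same base included CG8788 with CG44286 (rank 131), CG42353 with CG42354 (rank 140), the kinase fray with CG7694 (rank 172), Cyp6u1 with Ufsp1 (rank 242), Alp12, CG13085 and Pax (rank 312), and CG44245 with Gyg (rank 342). The last of the 10, CG31808 with Cyt-c-d, a cytochrome c gene (rank 269), has overlapping starts.

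Most shared promoters served 2 genes (877 peaks), 45 served 3 and 2 served 4, while 1 peak lay near 5 genes. The peak with the most genes, 10, lay at 21365478 on 3R (rank 161; rank 130 in replicate 1 and 187 in replicate 2). All 10 were pre-mod(mdg4) genes, short annotated genes whose transcripts are trans-spliced to the insulator gene mod(mdg4). In all, 1831 protein-coding genes had such a peak, of which 1720 were at divergent peaks. By chromosome arm the share of IDR peaks at shared promoters was 20.9% on 3R, 20.4% on 2R, 18.6% on 2L, 18.3% on 3L and 13.5% on X (11.5 to 15.8%), and the 1 peak on chromosome 4 was not at one. Among the 5033 strongest peaks of each replicate alone, 970 (19.3%) lay at shared promoters in replicate 1 and 895 (17.8%) in replicate 2.

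Divergent pairs carried shared summits more often than other close pairs did. The annotation holds 3520 pairs of protein-coding genes with closest TSSs at most 1000 bp apart, and 1040 of them (29.5%) had an IDR summit within 500 bp of a TSS of each gene. For divergent pairs the share was 34.4% (901 of 2616, 32.6 to 36.3%), against 15.4% for other pairs (139 of 904, 13.2 to 17.9%). In replicate 1 alone the shares were 35.7% for divergent pairs and 15.0% for other pairs, and in replicate 2 alone they were 33.1% and 15.3%. With pairs compared at like spacing, in 5 classes that leave out their lower bound unless it is 0, the odds ratio was 2.00 (1.58 to 2.52; Cochran-Mantel-Haenszel test, n = 3520 pairs, p = 4.70e-09, adjusted p = 1.17e-08, Benjamini-Hochberg over 5 comparisons). The difference passed the test in the 2 wider classes. Up to 100 bp apart, 30.2% of divergent pairs and 29.1% of other pairs had a shared summit (Fisher's exact test, two-sided, adjusted p = 0.761 over the 5 classes). Of the 405 other pairs in this class, 360 start on the same base of the same strand. A summit near that base is shared by definition, and 107 of the 360 had a shared summit. Without pairs with the same start base, the odds ratio over all classes was 3.91 (2.68 to 5.70). At 300 to 500 bp a shared summit was present in 46.7% of divergent pairs against 11.1% of other pairs (4 of 36, exact adjusted p = 4.31e-05). At 500 to 1000 bp it was present in 14.8% against 0.472% (2 of 424, exact adjusted p = 3.39e-19). With a summit at either gene counted in place of a shared one, the differences in these 2 classes were smaller, at 50.2% of divergent pairs and 9 of 36 other pairs 300 to 500 bp apart (exact adjusted p = 0.00835) and 36.6% of divergent and 20.0% of other pairs at 500 to 1000 bp (odds ratio 2.30 in place of 36.7, exact adjusted p = 2.41e-08). The odds ratio over all classes was then 1.52 (1.26 to 1.83; Cochran-Mantel-Haenszel test, n = 3520 pairs, p = 7.33e-06). Of the 424 other pairs at 500 to 1000 bp, 396 were same-strand. Bases within 500 bp of both closest starts lie downstream of 1 start in those, but upstream of both in divergent pairs. At promoters of a single gene 87.4% of summits were upstream. The part of this geometry in the contrast of shared summits was not tested. In the classes from 100 to 300 bp the other pairs were few: 6 of 14 at 100 to 200 bp, against 31.9% of divergent pairs (exact adjusted p = 0.493), and 9 of 25 at 200 to 300 bp, against 48.96% (exact adjusted p = 0.375).

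Among other pairs, a shared summit was rarest in same-strand pairs with different starts. Same-strand genes that start on the same base had a shared summit in 107 of 360 pairs (29.7%, 25.2 to 34.6%), against 7 of 440 same-strand pairs with different starts (1.59%, 0.773 to 3.25%). Opposite-strand pairs with overlapping starts stood between, at 25 of 104 (24.04%, 16.8 to 33.1%). The pre-mod(mdg4) genes weigh on the same-strand counts, since 23 of them form 56 same-strand pairs, of which 27 had a shared summit. There were also 37 divergent pairs among the pre-mod(mdg4) genes, and the 21 of these with a shared summit all shared the peak of rank 161. Among the 1000 strongest peaks alone, the odds ratio of divergent to other pairs was 0.871 (0.625 to 1.21, n = 3520 pairs, p = 0.424). Without the pre-mod(mdg4) pairs it was 1.15 there (0.793 to 1.65), so the contrast in frequency did not pass the test for the strongest peaks either way.

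The share of divergent pairs with a shared summit changed abruptly with the distance between the starts. It stood at 31.1%, 29.7%, 34.1% and 28.9% in the 4 classes of 50 bp up to 200 bp. At 200 to 250 bp it was 50.4% (120 of 238, 44.1 to 56.7%), while at 150 to 200 bp it was 28.9% (43 of 149, 22.2 to 36.6%). The step was present in each replicate, with 55.04% at 200 to 250 bp against 29.5% at 150 to 200 bp in replicate 1, and 48.7% against 22.8% in replicate 2. The share was 53.6% at 300 to 350 bp, 40.5% at 500 to 550 bp, 14.7% at 600 to 650 bp and 0 of 45 pairs at 900 to 950 bp (upper limit 7.87%). That last decline is set in part by the rule, because a summit must lie within 500 bp of both starts and the window for this shrinks with distance. Per kb of that shared window, summits numbered 0.328 at 0 to 100 bp, 0.377 at 100 to 200 bp, 0.668 at 200 to 300 bp, 0.805 at 300 to 500 bp and 0.539 at 500 to 1000 bp. The share of pairs with a summit at either gene, which needs no shared window, was 32.9%, 35.9%, 51.8%, 50.2% and 36.6% in the same 5 classes. Pairs up to 300 bp apart had a shared summit in 38.3% (499 of 1303), against 30.6% (402 of 1313) for those 300 to 1000 bp apart (odds ratio 1.41, Fisher's exact test, p = 3.85e-05, adjusted p = 4.81e-05). The shrinking window favours close pairs in this test, and its direction turned without it. A summit at either gene was present in 41.4% of the close pairs and 43.3% of the wide pairs (odds ratio 0.922, Fisher's exact test, p = 0.323), and summits per kb of shared window numbered 0.464 in close and 0.718 in wide pairs. Under the same limit, spacing had a median of 282 bp in pairs with a shared summit (quartiles 182 and 383) and 326 bp in pairs without (151.5 and 605). The classes of 50 bp and their boundaries were drawn as a description and have no test.

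**Figure D1:**
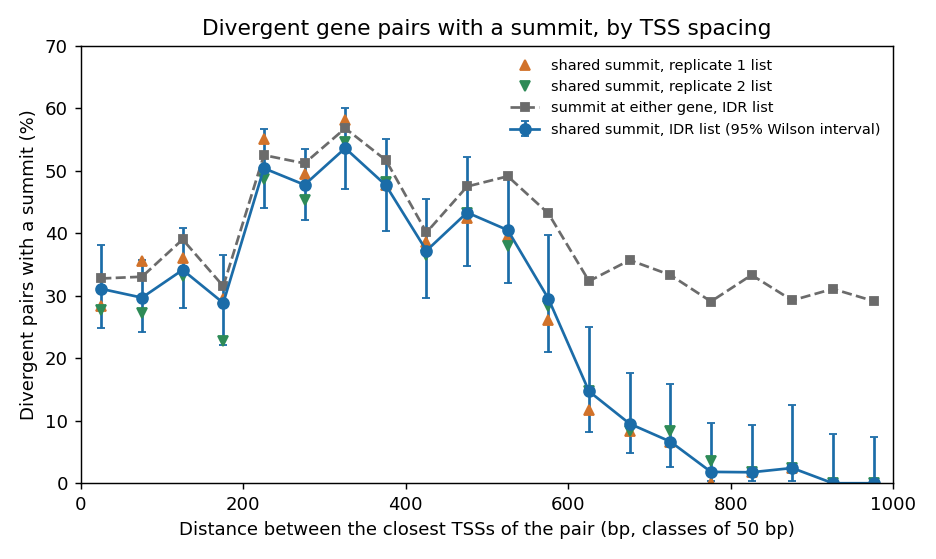
Share of divergent gene pairs with a summit (vertical axis, percent) against the distance between their closest TSSs (horizontal axis, bp, in classes of 50 bp). Circles with 95% Wilson intervals show shared summits of the IDR list, triangles show each replicate list, and grey squares show a summit at either gene; the step lies between 28.9% at 150 to 200 bp and 50.4% at 200 to 250 bp, in the IDR list.

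GC content moved with spacing and with occupancy. Within 100 bp of the midpoint between the starts, GC averaged 31.7% (SD 7.46 over 901 pairs) in pairs with a shared summit and 35.1% (SD 8.46 over 1715 pairs) in pairs without. It was 39.1% in pairs with a shared summit and 40.1% in pairs without at 100 to 200 bp apart, and 31.0% and 33.8% at 200 to 300 bp. At 300 to 500 bp it was 27.4% in pairs with and 29.8% in pairs without. The windows of close pairs also take in transcribed sequence of both genes. The part of base composition in the step was not tested.

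Summits of divergent pairs lay mostly between the starts and, in pairs up to 500 bp apart, close to the middle more often than the share of bases there. With each of the 866 summits counted once, in its pair of smallest spacing, 701 (80.9%, 78.2 to 83.4%) fell between the closest TSSs, which make up 45.7% of the bases where a shared summit could lie. The values that follow count each summit in each of its divergent pairs, 935 combinations in all, since 45 summits lie in more than 1 pair and that of rank 161 in 21, and they have no interval. Of these combinations 758 (81.1%) lay between the starts, against 45.4% of bases. For pairs 200 to 300 bp apart the share was 93.6% (34.1% of bases), and for those 100 to 200 bp apart it was 56.1% (16.7% of bases). For pairs up to 100 bp apart it was 23.8% (5.94% of bases). Spacing and position were both taken from the closest TSSs of a pair, while other annotated starts can be nearer to the summit. The closest TSSs of Hrd3 and PTPMT1, for example, are 51 bp apart. Their summit was 151 bp upstream of the nearest start of Hrd3 and 171 bp upstream of that of PTPMT1. Beyond 500 bp all bases within reach of both starts lie between them. Within 50 bp of the midpoint lay 46.7% of all combinations (15.2% of bases). The share was 34.6% for pairs up to 100 bp apart (10.7% of bases), 42.1% at 100 to 200 bp (11.8%), 69.7% at 200 to 300 bp (13.5%) and 41.9% at 300 to 500 bp (16.5%). At 500 to 1000 bp it was 23.8%, against 24.8% of bases, so that no excess at the middle was seen there. The median distance from the midpoint was 33.5 bp at 200 to 300 bp, 62.75 bp at 300 to 500 bp and 106 bp at 500 to 1000 bp. From the nearer start it was 94.5 bp, 127 bp and 180 bp in the same classes, and from the farther start it was 162 bp, 257 bp and 389 bp. In 34 pairs, with a median spacing of 376.5 bp, there were 2 shared summits, a median of 206 bp apart. The position of a shared summit is limited by the rule, so these shares are descriptions. The shares of bases treat all bases of the window alike, but upstream summits of single genes lay a median of 176 bp from the start (quartiles 96 and 274.5). The midpoint of pairs 200 to 300 bp apart is within that range of both starts. Its gathering of summits was not tested against this preference.

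**Figure D2:**
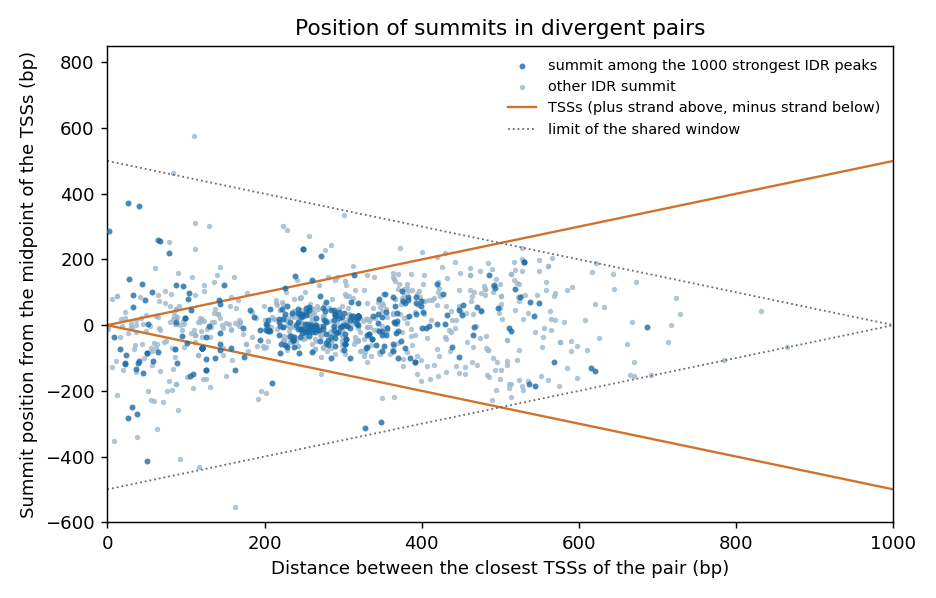
Position of each shared summit, in each of its divergent pairs, relative to the midpoint of the closest TSSs (vertical axis, bp) against the distance between these TSSs (horizontal axis, bp). Orange lines mark the TSSs, dotted lines the limit of 500 bp from both, and dark points the summits of the 1000 strongest peaks; 9 of the 935 combinations of a summit and a pair lie outside the limit because another TSS of a gene is nearer, and 6 of them, over 600 bp away, are not drawn. Points of pairs 200 to 300 bp apart gather at the midpoint.

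Relative to the genes, 742 of the 866 divergent peaks (85.7%, 83.2 to 87.9%) had their summit upstream of the nearest TSS of every gene. The nearest start was then a median of 104 bp away (quartiles 73 and 141.5). At promoters of a single gene, 87.4% of the 1390 summits (85.6 to 89.1%) were upstream, at a median of 176 bp (quartiles 96 and 274.5). With starts on both sides a summit is nearer to some TSS by geometry, and that part was not tested. The replicates placed the summits of divergent peaks a median of 19 bp apart (quartiles 7 and 47, 815 peaks with a summit within 250 bp in both full lists). At the limit of the rule, 15 peaks had their second gene in the last 25 bp inside it, with a median rank of 3025 (423 to 4744). Another 16 had it in the first 25 bp beyond and were not counted, with a median rank of 2486.5 (657 to 4649).

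Seen from the genes, those in divergent pairs had promoter summits far more often than genes that stand alone. A summit within 500 bp of an own TSS was present at 1909 of 4960 genes of divergent pairs (38.5%, 37.1 to 39.9%) and at 990 of 7960 genes with no other protein-coding TSS within 1000 bp (12.4%, 11.7 to 13.2%). Over all 13945 protein-coding genes the share was 21.8%. The odds ratio was 4.41 (Fisher's exact test, p = 1.07e-255, adjusted p = 5.36e-255). A gene of a divergent pair also takes in summits of its neighbour's promoter, and a shared summit counts for both genes. A single gene has no such neighbour, so part of this difference is set by the rule. Of the 1909 genes, 1719 had a shared summit, and the size of that part was not tested. In replicate 1 the shares were 40.1% in divergent pairs and 12.3% for single genes, and in replicate 2 they were 37.4% and 12.1%. Genes in other close pairs only had summits in 147 of 1025 cases (14.3%, 12.3 to 16.6%), near the share of single genes. The 200 bp upstream of the genes were poorer in GC in divergent pairs (36.4%, SD 7.65) than at single genes (39.9%, SD 9.26), and with genes compared in classes of like GC the odds ratio was 4.24 (3.88 to 4.64). Annotated starts per gene averaged 1.46 in divergent pairs and 1.37 at single genes. Expression level and chromatin state were not analysed here.

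Divergent peaks were also stronger than promoter peaks of single genes. Among the 1000 strongest IDR peaks, which are 19.9% of the list, were 271 of 866 divergent peaks (31.3%, 28.3 to 34.5%) and 311 of 1390 single-gene peaks (22.4%, 20.3 to 24.6%). The odds ratio was 1.58 (Fisher's exact test, p = 3.19e-06, adjusted p = 5.32e-06), and it was 1.44 (1.18 to 1.75) with peaks compared in classes of like GC content. The median rank was 1781.5 for divergent peaks, 1603.5 for the 60 other shared peaks, 2296.5 for single-gene peaks and 2867 for peaks away from protein-coding promoters. Of the 100 strongest peaks, 37 were divergent and 2 were at other shared promoters, while 35 were at single genes and 26 elsewhere. Strength varied with spacing too, given here with no test. For pairs 200 to 300 bp apart the median rank was 1344 and 41.7% of peaks (103 of 247, 35.7 to 47.9%) were among the 1000 strongest. The share was 28.6% at 0 to 100 bp, 26.5% at 100 to 200 bp, 31.2% at 300 to 500 bp and 14.3% at 500 to 1000 bp.

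**Figure D3:**
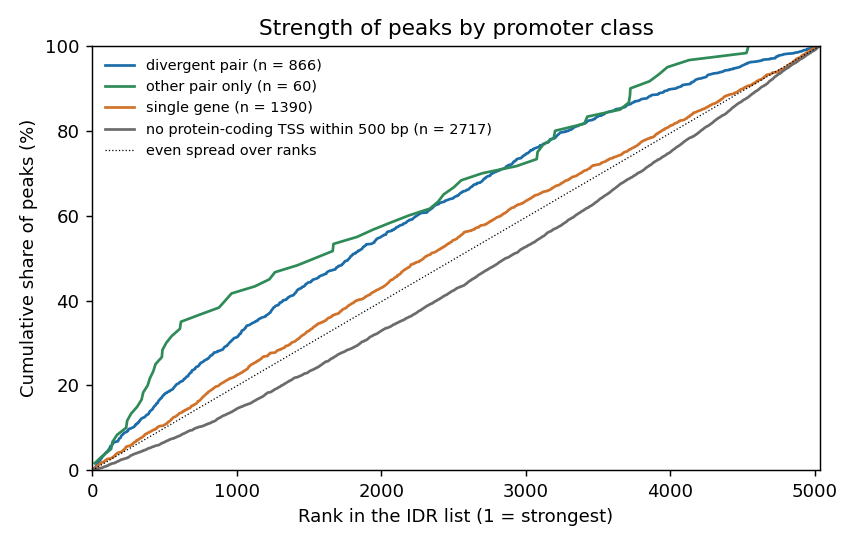
Cumulative share of peaks of each promoter class (vertical axis, percent) by rank in the IDR list (horizontal axis, 1 is the strongest), with a dotted line for an even spread. The line of divergent peaks runs above that of single-gene peaks, with 31.3% against 22.4% of peaks within rank 1000.

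In the replicates, a summit within 100 bp was present in both full lists for 781 of 866 divergent peaks (90.2%, 88.0 to 92.0%) and 1282 of 1390 single-gene peaks (92.2%, 90.7 to 93.5%), against 92.1% of all IDR peaks. The difference did not pass the test (odds ratio 0.774, Fisher's exact test, p = 0.104, adjusted p = 0.104), and its direction depended on the lists used. Within 250 bp the shares were 94.1% for divergent and 97.2% for single-gene peaks (Fisher's exact test, p = 0.000365). Among the 5033 strongest peaks of each replicate they were 79.9% and 72.8% (Fisher's exact test, p = 0.000129). Over the 781 divergent peaks in both lists the replicate ranks had a Spearman rho of 0.896, a description across peaks that the IDR selection had already chosen for reproducible rank.

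Divergent pairs without an IDR summit were not all empty in the weaker lists. Of 1715 such pairs, 382 (22.3%, 20.4 to 24.3%) had a shared summit in the full pooled list, at a median rank of 8742.5. In both full replicate lists 242 of the 1715 (14.1%, 12.5 to 15.8%) had one. In none of the 3 full lists was there a shared summit for 1082 (63.1%, 60.8 to 65.3%). With the whole pooled list, 1283 of 2616 divergent pairs (49.04%, 47.1 to 51.0%) had a shared summit. These lists hold a fixed number of peaks, and a low rank there is no sign of enrichment. Shares of other pairs and of single genes in the full lists are not given here, so no excess can be read from these counts. By arm, the share of divergent pairs with an IDR summit was 40.4% on 3R (36.7 to 44.1%), 36.3% on 3L, 32.7% on 2L, 31.6% on X and 29.6% on 2R (25.8 to 33.6%), and 0 of 11 on chromosome 4.

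Shared summits were counted at the genes of 18 lists, from translation and chromatin to sense organs and cuticle. As the measure to read them against, 1719 of 4960 genes of divergent pairs (34.7%) had a shared summit. No list was tested, since the lists were drawn up with earlier results of these data known. Of 25 RNA modification enzymes 20 lie in divergent pairs, and 14 of the 20 had a shared summit (interval 48.1 to 85.5%). They included Tcs5 (rank 8), the Elongator subunits Elp5 (rank 99, with CG1275) and Elp6 (rank 186, with Dic1), and the tRNA methyltransferase subunit Trmt6 (rank 139, with Ent2), while Elp2 and Elp3 had none. Among Polycomb, trithorax and insulator genes it was 13 of 21 (61.9%, 40.9 to 79.2%). Chro (rank 5), brm (rank 47), the insulator gene Cp190 (rank 64, with CG4338) and the histone methyltransferase E(z) (rank 98, with Cnep1r2) led, and ash2 and Asx had none. Mediator, which joins transcription factors to RNA polymerase II, had 11 of 19 (57.9%, 36.3 to 76.9%), with MED27 (rank 177), MED17 (rank 309) and MED30 (rank 454) but not MED1. RNA polymerase subunits had 9 of 19 (47.4%, 27.3 to 68.3%), among them Polr2H (rank 152), Polr2B (rank 251) and Polr2J (rank 395).

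Of 73 mitochondrial ribosomal protein genes, 58 lie in divergent pairs, against 4960 of 13945 over all genes (35.6%). Of the 58, 28 had a shared summit (48.3%, 35.9 to 60.8%), led by mRpS10 (rank 13), mRpS23 (rank 29), mRpL23 (rank 31) and mRpL47 (rank 137), while mRpL15 and mRpL17 had none. Aminoacyl-tRNA synthetases, which charge tRNAs, had 10 of 22 (45.5%, 26.9 to 65.3%), with ThrRS (rank 180) and IleRS (rank 291). The list of DNA repair genes had 14 of 31 (45.2%, 29.2 to 62.2%), or 13 of 30 without spn-E (rank 2730), a helicase of the piRNA pathway that the list also holds. They included mei-41, the ATR kinase (rank 249), and Ercc1, which shares its promoter with the condensin gene SMC2 (rank 373). The ATM kinase gene tefu shared its promoter with the chaperone gene Hsc70-4 (rank 427). Proteasome subunits had 10 of 24 (41.7%), with Rpn5 (rank 746), and DNA replication genes had 8 of 20 (40.0%). In that list the helicase gene Mcm2 shared its peak with RPA1 (rank 950). Cytoplasmic ribosomal proteins had 21 of 52 (40.4%, 28.2 to 53.9%), led by RpL34b with CG8132 (rank 287) and RpS27 with Nup37 (rank 337). Respiratory chain subunits had 15 of 41 (36.6%), with ND-MWFE (rank 227). Translation initiation factors had 4 of 21 (19.0%, 7.67 to 40.0%): eIF4EHP (rank 28), eIF3m (rank 770), eIF1 (rank 1357, with RpL28, and no replicate 1 summit within 100 bp) and eIF3h (rank 4240).

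In lists of sense organs, cuticle and digestion fewer genes lie in divergent pairs, and 1 of them had a shared summit. Of 179 chemoreceptor genes 25 lie in divergent pairs, and 1 of the 25 had a shared summit (4.00%, 0.710 to 19.5%), namely Ir60b with the mitochondrial gene Letm1 (rank 4164). Odorant binding proteins had 0 of 11 (upper limit 25.9%), cuticle proteins 0 of 13 (upper limit 22.8%), proteases of the Jonah and trypsin families 0 of 8 (upper limit 32.4%) and small heat shock proteins 0 of 2. None of the 8 Hox genes lies in a divergent pair. The same groups can be set beside their genes that stand alone, with no test. Here too a gene of a divergent pair takes in summits of its neighbour's promoter. Of 17 lists with genes of both kinds, the share with a promoter summit was higher in divergent pairs in 13, lower in 2 and 0 in both kinds in 2. The 2 lower were small heat shock proteins, with 0 of 2 in divergent pairs and 2 of 4 alone, and odorant binding proteins, with 0 of 11 in divergent pairs and 1 of 29 alone. Mitochondrial ribosomal genes had a promoter summit in 30 of 58 cases in divergent pairs and in 2 of 13 alone. For proteasome genes it was 10 of 24 in divergent pairs and 2 of 22 alone, and for translation initiation factors 7 of 21 in divergent pairs and 1 of 21 alone. Cytoplasmic ribosomal genes had one in 28 of 52 cases in divergent pairs and in 15 of 33 alone.

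**Figure D4:**
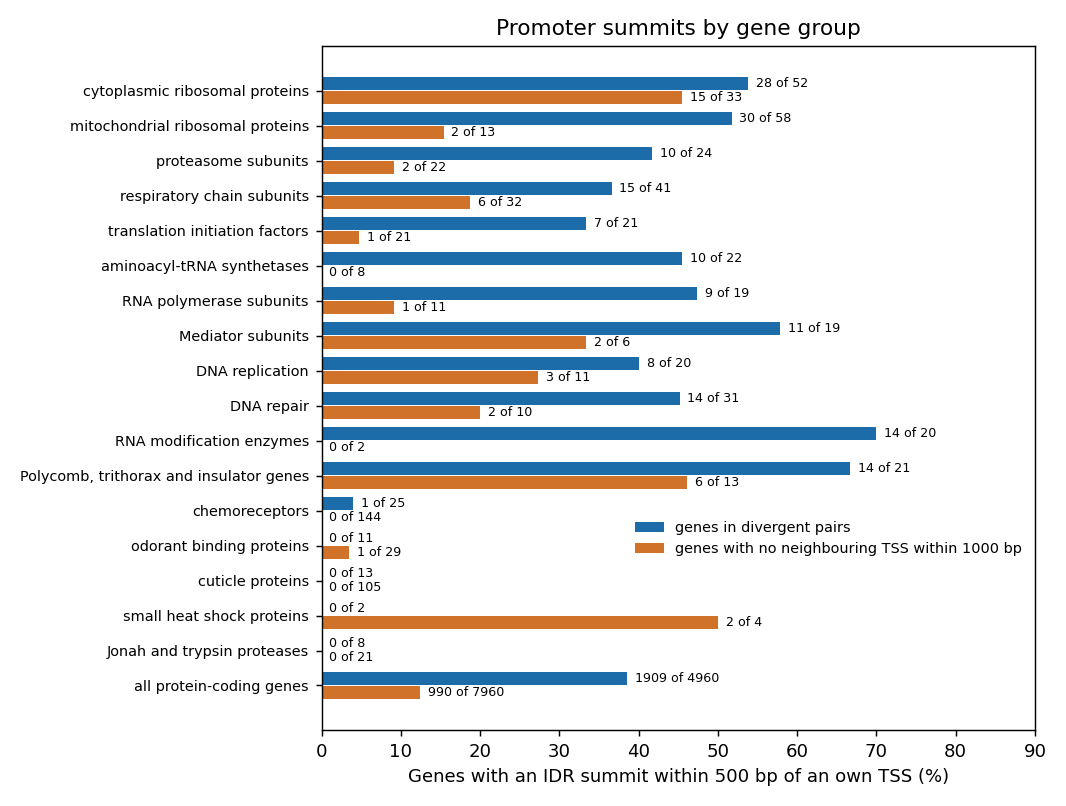
Share of the genes of each list with an IDR summit within 500 bp of an own TSS (horizontal axis, percent), for genes in divergent pairs (upper bar) and genes with no other protein-coding TSS within 1000 bp (lower bar), with the counts beside each bar. Over all protein-coding genes the shares are 38.5% in divergent pairs and 12.4% alone.

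Of 12 motifs searched on both strands within 100 bp of the midpoint, 2 (16.7%) differed between divergent pairs with and without a shared summit at adjusted p 0.05, and both were made of A and T. The Hox core TAATTA was present in 27.1% of 901 pairs with a shared summit and 19.6% of 1715 pairs without (odds ratio 1.52, Fisher's exact test, two-sided, adjusted p = 0.000191 over 12 motifs), and in 15.5% of all promoters. The TATA box TATAAA was present in 45.2% of pairs with and 37.1% of pairs without (odds ratio 1.40, exact adjusted p = 0.000392), and in 37.0% of all promoters. All promoters here are windows of the same length just upstream of the most upstream start of each of 13945 genes. Pairs with a shared summit were poorer in GC, as given above. With pairs compared in classes of like GC content, 0 of the 12 passed a Cochran-Mantel-Haenszel test (n = 2616 pairs, Hox core adjusted p = 0.213, TATA box adjusted p = 0.765). The Abd-B motif, TTTATGG or TTTATTG, stood at 17.1% in pairs with a shared summit and 17.1% in pairs without (exact adjusted p = 1), and at 13.8% of all promoters. The Caudal motif TTTATG, which lies inside TTTATGG, stood at 21.98% and 21.5%, and at 20.0% of all promoters.

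None of the motifs of housekeeping promoters passed the test within 100 bp of the midpoint, with the whole IDR list. TATCGATA, the DREF site, was present in 8.10% of pairs with a shared summit and 8.80% of pairs without (exact adjusted p = 0.958), and in 7.39% of all promoters. CGATA, the core of BEAF-32 sites, which lies inside TATCGATA, stood at 42.0% and 40.8% (exact adjusted p = 0.958), and at 38.4% of all promoters. GGTCACAC, or Motif 1, stood at 5.44% and 5.42% (3.74% of all promoters). CATCNCTA, Ohler motif 7, stood at 6.55% and 4.72% (exact adjusted p = 0.131; 3.70% of all promoters). The E-box CAGCTG stood at 10.7% in pairs with a shared summit and 13.8% without (exact adjusted p = 0.0903; 11.6% of all promoters), and GAGAG, the site of GAGA factor, at 12.3% and 15.5% (exact adjusted p = 0.0903; 22.2% of all promoters). CAGGTA, the site of the early activator Zelda, stood at 3.22% and 3.38% (4.27% of all promoters), and Ohler motif 6 at 2.11% and 2.39% (1.83% of all promoters). These calls depended on the window and the list. With 150 bp either side, CGATA (odds ratio 1.26, exact adjusted p = 0.0169), CATCNCTA (1.94, exact adjusted p = 2.71e-05) and GAGAG (0.701, exact adjusted p = 0.00254) passed and the TATA box did not (1.19, exact adjusted p = 0.0948). The E-box passed with 50 bp either side (0.572, exact adjusted p = 0.00715) and in the replicate 2 list alone (0.698, exact adjusted p = 0.0241). Motif 1 (0.102, exact adjusted p = 6.38e-05) and CGATA (0.707, exact adjusted p = 0.0196) were rarer in pairs with a summit among the 1000 strongest peaks than in all other divergent pairs.

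**Figure D5:**
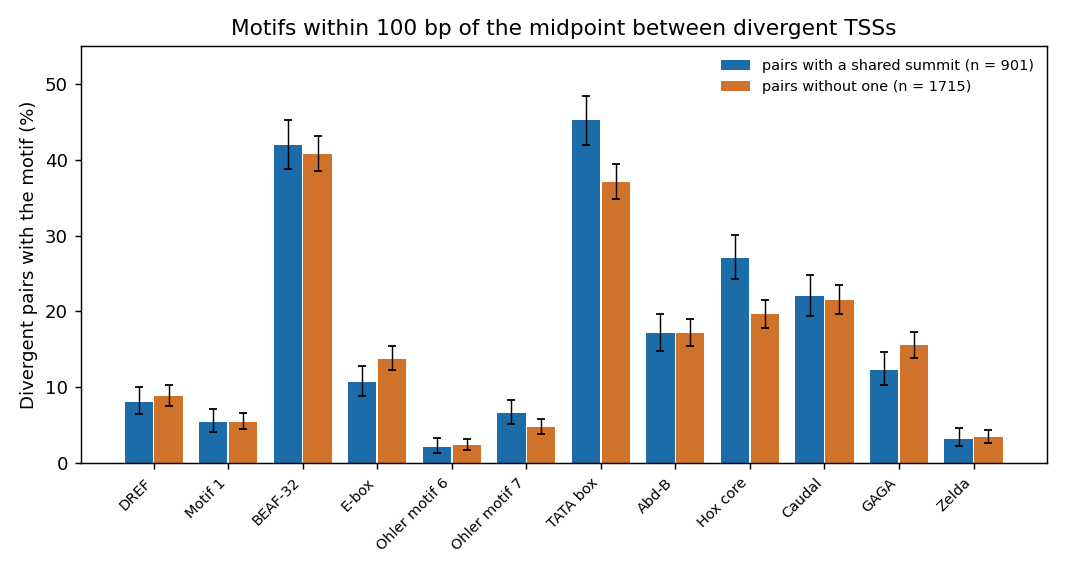
Share of divergent pairs with each motif within 100 bp of the midpoint of their TSSs (vertical axis, percent), for pairs with a shared summit (left bars) and without (right bars), with 95% Wilson intervals. The Hox core (27.1% against 19.6%) and the TATA box (45.2% against 37.1%) are the 2 that passed, and neither did in classes of like GC content.

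Around the summits themselves, 7 of the 12 motifs (58.3%) differed between divergent and single-gene promoter peaks, in a comparison added after seeing the data. CGATA lay within 100 bp of 47.1% of 866 divergent summits and 35.6% of 1390 single-gene summits (Fisher's exact test, adjusted p = 8.20e-07 over 12 motifs). TATCGATA did so at 10.97% and 6.91% (exact adjusted p = 0.00313), and CATCNCTA at 8.66% and 5.25% (exact adjusted p = 0.00468). TATAAA stood at 44.6% of divergent and 36.9% of single-gene summits (exact adjusted p = 0.00136), TAATTA at 24.1% and 18.7% (exact adjusted p = 0.00468), and CAGCTG at 10.6% and 7.70% (exact adjusted p = 0.0310). GAGAG went the other way, at 12.2% of divergent and 19.0% of single-gene summits (exact adjusted p = 0.000146). The Abd-B motif stood at 17.1% and 18.1% (exact adjusted p = 0.623), and Motif 1 at 6.58% and 4.53% (exact adjusted p = 0.0565). GC content was 33.2% (SD 6.55) at divergent and 35.4% (SD 7.45) at single-gene summits, and its part in these differences was not tested. Nor was that of the distance to the starts, which sets how much sequence next to a TSS a window takes in. For upstream summits the median was 104 bp to the nearest start at divergent peaks and 176 bp at single-gene peaks. Within the divergent peaks, the 271 among the 1000 strongest are set beside the other 595 as a description. Motif 1 lay at 1.11% of the strongest and 9.08% of the others, the DREF site at 6.27% and 13.1%, CGATA at 34.7% and 52.8%, and the TATA box at 53.9% and 40.3%. The Abd-B motif lay at 19.6% of the strongest and 16.0% of the others.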

How the data were processed

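The deposited lists give each peak a signal value, a score of unstated scale, the authors' −log10 q-value and a summit offset, per the labels on dm6. The authors made 4 lists: 1 per replicate, 1 pooled and 1 that passed IDR. The sources used here name neither aligner nor peak caller. Summits were joined to the TSSs of 13945 protein-coding genes on 6 main arms (Ensembl release 115, BDGP 6.54), and all peaks lay inside the RefSeq arm lengths. A pair was classed by its closest TSSs. Replicate lists used alone were cut to their 5033 strongest peaks. Shares have 95% Wilson intervals. Tests were two-sided Fisher's exact or Cochran-Mantel-Haenszel tests with Benjamini-Hochberg adjustment and a threshold of 0.05, and their functions were tested on simulated data. Members, lists and tests were chosen with earlier results of these data known. Named were the 20 strongest divergent and 10 strongest other peaks, and per list up to 4 genes with and 2 without a shared summit. Cpr, no cuticle gene, was taken out of that list later. Python 3.11.15, numpy 2.4.6, scipy 1.17.1, statsmodels 0.14.6 and matplotlib 3.10.9 were used. Control or untagged samples and signal tracks were not analysed here.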

Additional observations from a re-analysis of the deposited data

How the results depend on the processing

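The odds ratios for genes in divergent pairs against single genes (3.20 to 5.51 over 9 alternatives) and for the strength of divergent peaks (1.44 to 2.01 over 7) kept their direction and passed in every alternative run. None of the 9 takes out summits of a neighbour's promoter, which only genes in pairs can collect. The odds ratio for close against wide pairs was 1.26 to 1.53 over 5 alternatives that all keep the shared window of 500 bp, which favours close pairs, and turned to 0.922 with a summit at either gene. The share of summits between the starts was 78.7 to 82.6% over 8 alternatives, but the share of bases there was 45.4% in the main setting, 71.6% with a 250 bp window (80.2% of summits) and 25.7% with a 1000 bp window (78.7% of summits). The share of IDR peaks at shared promoters was 29.6% in the 1000 strongest peaks, 23.8% in the list above its middle rank, 12.001% with a 250 bp window, 22.9% with a 1000 bp window and 17.0% with the most upstream TSS of each gene. It was 17.8 to 19.3% when 1 replicate was left out. The divergent share of these peaks was 91.6% in the 1000 strongest and 90.8% with the 1000 bp window. The odds ratio of divergent against other pairs was 0.871 to 3.91 over 13 alternatives. It turned to 0.871 in the 1000 strongest peaks, and to 1.15 there without the pre-mod(mdg4) pairs. With the whole IDR list it was 1.52 with a summit at either gene and 2.27 (1.77 to 2.90) without the pre-mod(mdg4) pairs. The highest value, 3.91 (2.68 to 5.70), came without pairs with the same start base. Without 1 replicate it was 1.85 to 2.14. Of the motifs at midpoints, 2 passed in the main setting, 4 in the 1000 strongest peaks, 4 with 150 bp either side (Hox core, BEAF-32, Ohler motif 7 and GAGA, but not the TATA box) and 0 in classes of GC content. The E-box passed with 50 bp and without replicate 1. The odds ratio for presence in both replicates was 0.461 within 250 bp and 1.49 among the strongest peaks of each list. Of 108 values for single motifs, 3 reversed, namely Motif 1 at 0.102 in the 1000 strongest peaks and 0.540 above the middle rank, and BEAF-32 at 0.707 in the 1000 strongest. A further 21 that passed in neither setting lay on the other side of 1. The causes were not tested. The classes of GC content, the counts at either gene and of each summit once, and the settings without pre-mod(mdg4) pairs were chosen after seeing the data. No paired analysis was possible because there was 1 group. Depth is unknown.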
